A study of Homo sapiens with 6 samples.

Results

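RNA-seq was examined for 51 genes that encode the proteins of DNA replication origins and forks, in PANC-1 cells with and without silencing of the m6A methyltransferase METTL16. The members were taken by name from the 58735 genes of the deposited table, and all 51 were found and passed the filter on low counts that left 15089 genes for testing. They cover origin recognition, licensing, firing, priming, DNA synthesis, clamp loading, lagging strand maturation, fork protection and chromatin assembly. The MCM helicase genes were not among them.

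PANC-1 is an established human cell line of pancreatic ductal adenocarcinoma. There were 3 control samples, transfected with control siRNA (si-NC), and 3 silenced samples, transfected with siRNA against METTL16 (si-METTL16), grown in DMEM with fetal bovine serum and antibiotics. The transfection field of the labels calls the control samples WT, while their titles name si-NC, and no further allele or agent was given for either group. The methods call the replicates biological and the sequenced cells stably transfected with siRNA, and describe puromycin selection for stable lines made with shRNA or vectors. Whether the sequenced cells went through that selection was not established here. Total counts ranged from 15725298 to 18054436 per sample. METTL16 fell from 96.3 ± 4.58 CPM (counts scaled to the library total, SD, n = 3) in si-NC to 34.5 ± 0.571 CPM in si-METTL16 samples, with no overlap, to 35.9% of the control level (log2 fold change -1.48, standard error [SE] 0.07, adjusted p = 8.3e-05, edgeR's quasi-likelihood test). All 6 ductal epithelial markers examined (KRT7, KRT8, KRT18, KRT19, EPCAM and SOX9) were above 1 CPM in every sample. Of these, 3 were lower after silencing, KRT19 (log2 fold change -1.40, SE 0.17, adjusted p = 0.00111), KRT7 (-0.84, adjusted p = 0.0117) and SOX9 (-0.25, adjusted p = 0.00987), and KRT8, KRT18 and EPCAM did not pass the test. The summed ductal list was 3040 to 4110 CPM in si-NC and 3270 to 3560 CPM in si-METTL16 samples. No endothelial or fibroblast marker, of 3 each, reached 1 CPM in all samples, and of 4 leukocyte markers CD68, also a gene of lysosomes, alone did. The summed leukocyte list, in which CD3E was at 0, was 5.75 to 5.83 CPM in si-NC and 7.79 to 9.45 CPM in si-METTL16 samples, and the part of either list in the results was not tested.

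Replication starts in G1 phase, when the origin recognition complex (ORC1 to ORC6), CDC6 and CDT1 load the MCM helicase onto DNA, a step called licensing that geminin (GMNN) blocks. In S phase the kinase CDC7 with its activator DBF4, and the factors CDC45, GINS, TOPBP1 and RECQL4, turn the loaded helicase on. DNA polymerase alpha with primase then lays primers, polymerases epsilon and delta copy the leading and the lagging strand, and the clamp PCNA, loaded by RFC, holds them on DNA. Many of these genes are known as targets of the E2F transcription factors, which carry the G1 to S transition.

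For this reason the promoters of the members were searched for the E2F-type octamers TTTCCCGC, TTTCGCGC, TTTGCCGC and TTTGGCGC on either strand. RefSeq promoters (GRCh38.p14, 250 bases before to 50 bases after the gene start) were found for 45 of the 51 members. One of the octamers was present in 18 of these 45 (40.0%), against 908 of 27305 promoters of all genes (3.33%) and 560 of 10373 promoters of tested genes (5.40%). The matches began between positions -137 and 8 relative to the gene start. The windows of the 6 members with the highest log2 fold changes among those with a match were chosen to show such an octamer in genes that rose, and the windows of LIG1, ORC3 and POLE4 because these are the 3 members with a match that did not pass the test. Each is written on the strand of its gene, with the octamer or its reverse complement in capitals.
DTL (chr1:212035729-212035758): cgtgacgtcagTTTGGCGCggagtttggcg
GINS2 (chr16:85688967-85688996): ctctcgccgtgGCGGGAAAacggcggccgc
CDT1 (chr16:88803743-88803772): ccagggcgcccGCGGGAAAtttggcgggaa
POLE2 (chr14:49688201-49688230): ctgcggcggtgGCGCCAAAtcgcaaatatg
CDC6 (chr17:40287875-40287904): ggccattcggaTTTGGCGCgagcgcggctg
RFC3 (chr13:33818083-33818112): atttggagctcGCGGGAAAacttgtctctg
LIG1 (chr19:48170440-48170469): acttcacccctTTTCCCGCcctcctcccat
ORC3 (chr6:87590112-87590141): cgcgagggcgcGCGGGAAAtcccgagtgca
POLE4 (chr2:74958601-74958630): ctccagcccgcGCGGGAAAgggcctgcgcc
An octamer was found in 15 of the 35 promoters of members that rose (42.9%) and in 3 of the 9 of members that did not pass the test (33.3%). The CCAAT box, the motif of the factor NF-Y, was present in 25 of the 45 member promoters (55.6%), in 35.7% of all promoters and in 36.6% of the promoters of tested genes. The hexamer TTTGAA, the motif of the CHR element of mitotic genes, was present in 1 of the 45 (2.22%), in 15.4% of all promoters and in 9.04% of the promoters of tested genes. These are matches of letters, and the members were chosen by function with earlier results known.

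After silencing of METTL16, 40 of the 51 members were higher, 1 was lower and 10 did not pass the test (edgeR's quasi-likelihood test, adjusted p under 0.05 over all tested genes). Of all tested genes, 18.4% were called higher and 17.5% lower. The median log2 fold change of the members was 0.86, and that of all tested genes was -0.0045. Of the members that rose, 18 did so at least 2-fold (log2 fold change of 1 or more), as did 4.4% of all tested genes. For 43 members, 40 of them higher and 3 lower, there was no overlap between control and silenced values, as for 25.7% and 25.2% of all tested genes. In bulk RNA, a larger share of cells in S phase and more of these transcripts per cell cannot be told apart.

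**Figure D1:**
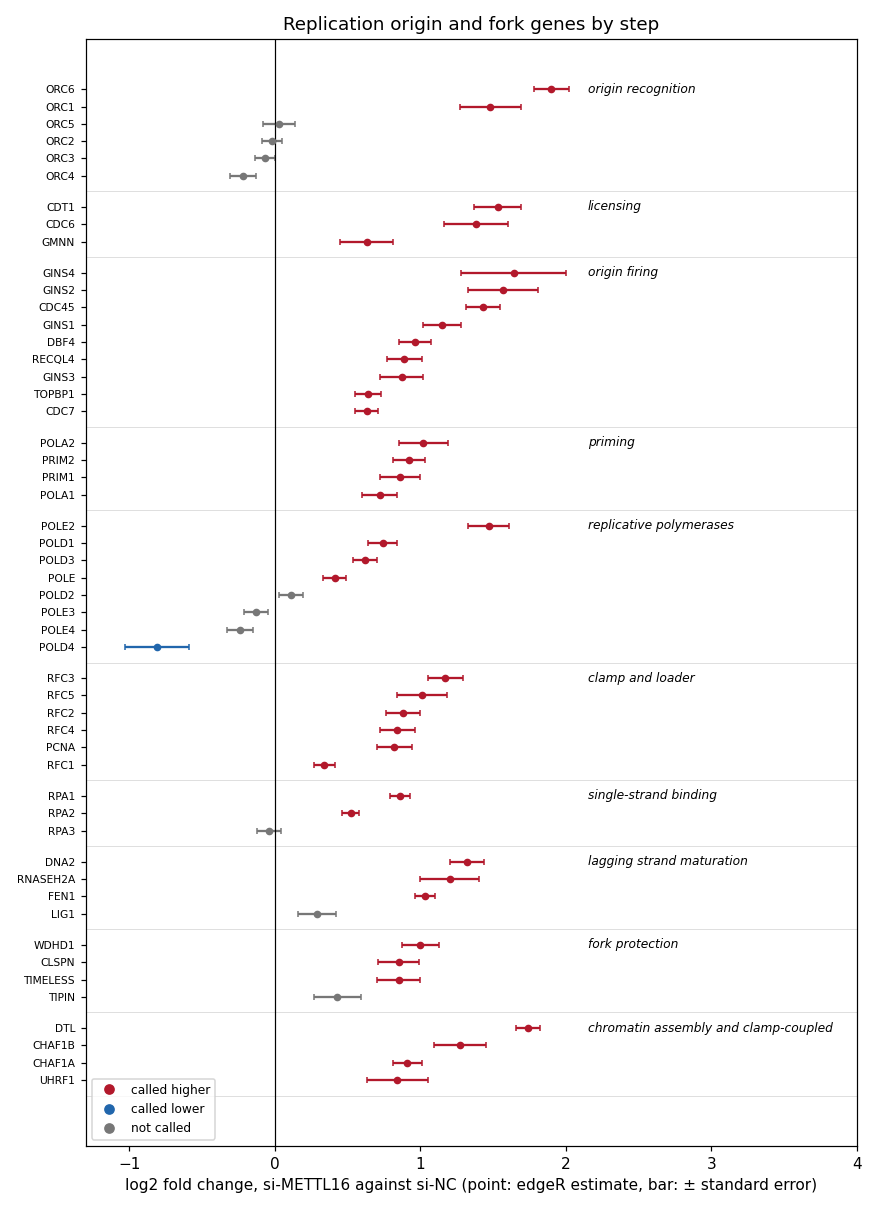
Log2 fold change (si-METTL16 against si-NC, x axis) of each of the 51 members (y axis) with its standard error, grouped by step and coloured by the call of edgeR's quasi-likelihood test. The licensing, firing, priming, clamp and chromatin assembly genes all lie to the right of 0, while ORC2 to ORC5, POLE3, POLE4, POLD2 and RPA3 lie close to it and POLD4 at -0.81 is the one gene called lower.

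By sample, the median of the members relative to the si-NC mean was 0.75, 0.89 and 0.90 on the log2 scale in si-METTL16 replicates 1, 2 and 3, and -0.11, 0.07 and 0.04 in si-NC replicates 1, 2 and 3. Every si-METTL16 sample thus lay above every si-NC sample. Among the 40 members that rose, si-NC replicate 1 held the lowest si-NC value for 32, and si-METTL16 replicate 1 the lowest si-METTL16 value for 23. Without si-NC replicate 1 the median log2 fold change was 0.77.

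**Figure D2:**
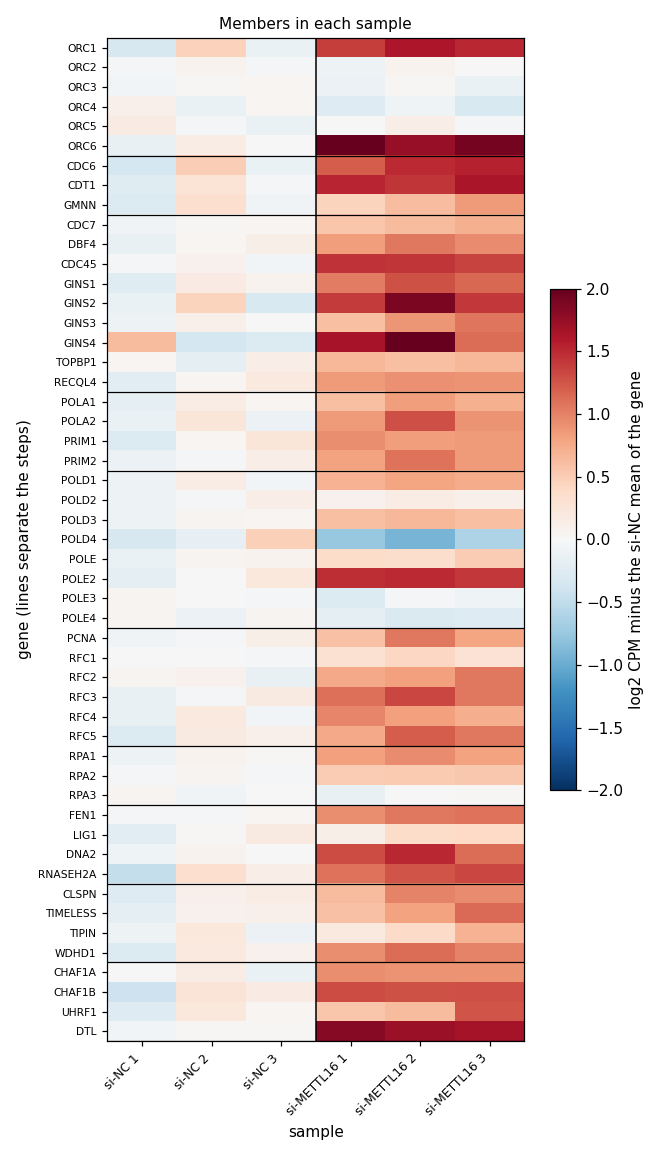
Log2 CPM minus the si-NC mean of the gene (colour, limited to 2 on either side of 0) for the 51 members (rows, by step) in the 6 samples (columns). The 3 si-METTL16 columns are red for most rows, with medians of 0.75 to 0.90, and the pale rows ORC2 to ORC5, POLD2, POLE3, POLE4 and RPA3 mark subunits that did not pass the test.

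The subunits of the origin recognition complex did not move together. ORC1 and ORC6 rose, while ORC2, ORC3, ORC4 and ORC5, which with ORC1 form the ring that binds the origin, did not pass the test. ORC6 (chromosome 16 from 46689643 to 46698394) had 9.53, 11.7 and 10.6 CPM in control replicates 1, 2 and 3 and 43.0, 35.6 and 40.1 CPM in the silenced replicates. All 3 silenced samples were far above the controls, and its 3.74-fold rise was the highest of all members (log2 fold change 1.90, SE 0.12, adjusted p = 1.2e-04). ORC1, the subunit whose level varies over the cell cycle in human cells, had 5.98, 10.4 and 6.85 CPM in the controls and 19.9, 23.2 and 21.6 CPM after silencing. The groups were apart, although si-NC replicate 2 lay above its 2 companions (log2 fold change 1.48, SE 0.21, adjusted p = 0.00179). ORC2 had 74.3, 80.6 and 74.4 CPM in the controls and 70.9, 79.8 and 75.8 CPM after silencing, and these groups overlapped. The log2 fold changes of ORC2 to ORC5 ranged from -0.22 (ORC4, SE 0.09, adjusted p = 0.105) to 0.03 (ORC5, SE 0.11, adjusted p = 0.834). In the deposited FPKM, which are counts scaled by a length and the library total, ORC1 moved from 1.97 ± 0.593 (SD, n = 3) to 5.42 ± 0.437. The lengths are not given in the sources used here, so this value was not set against the levels of other subunits. ORC3 had the highest deposited FPKM of the ORC subunits, 20.8 ± 0.716 for the controls and 19.5 ± 1.18 after silencing. For the same reason, this was not read as a rank of abundance.

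All 3 genes that govern licensing rose. CDC6, the ATPase that joins ORC to load the helicase, had 14.4, 26.1 and 16.8 CPM in the controls and 43.0, 52.3 and 54.2 CPM after silencing. CDT1, which brings the helicase to the origin, had 4.67, 6.78 and 5.48 CPM in the controls and 16.3, 15.3 and 17.5 CPM after silencing. For both genes the lowest silenced sample exceeded the highest control, with log2 fold changes of 1.38 (SE 0.22, adjusted p = 0.00315) and 1.53 (SE 0.16, adjusted p = 5.5e-04). GMNN, the inhibitor of CDT1, had 18.8, 28.8 and 21.5 CPM in the controls and 30.8, 34.9 and 41.0 CPM after silencing. Its groups did not overlap, but si-NC replicate 2 came close to si-METTL16 replicate 1 (log2 fold change 0.63, SE 0.18, adjusted p = 0.0303). The call of GMNN was lost in 4 of the 6 edgeR fits that left out a sample, with adjusted p from 0.0703 to 0.0945: those without si-NC replicate 1 or 3 or without si-METTL16 replicate 2 or 3. The log2 ratio of CDT1 to GMNN within a sample was -1.98, -2.07 and -1.95 in si-NC and -0.91, -1.19 and -1.23 in si-METTL16 samples. CDT1 thus gained on its inhibitor by 0.89 on the log2 scale, with no overlap between the groups.

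All 9 genes of origin firing rose. CDC45, a subunit of the active helicase, had 4.91, 5.36 and 4.85 CPM in the controls and 14.0, 13.7 and 13.1 CPM after silencing. The spread within each group was small beside the gap between them (log2 fold change 1.43, SE 0.12, adjusted p = 2.4e-04). GINS2 had 4.26, 6.42 and 3.76 CPM in the controls and 12.6, 17.7 and 12.6 CPM after silencing (log2 fold change 1.57, SE 0.24, adjusted p = 0.00269). GINS4 had 5.03, 2.47 and 2.62 CPM in the controls and 10.3, 14.2 and 7.07 CPM after silencing. It had the lowest FPKM of the members, 0.301 ± 0.128 in si-NC samples, and its log2 fold change of 1.64 had the largest SE of the members (0.36, adjusted p = 0.011). The other GINS subunits, GINS1 and GINS3, showed log2 fold changes of 1.15 and 0.87, so all 4 members of this complex of the helicase rose. DBF4, the activator of the S phase kinase, rose by 0.96 on the log2 scale (SE 0.11) and its kinase CDC7 by 0.63 (SE 0.08). RECQL4 and TOPBP1, which help to recruit CDC45 and GINS, rose by 0.89 and 0.64 on the log2 scale.

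All 4 genes of the primer-making complex rose. The log2 fold changes were 1.02 for POLA2, 0.92 for PRIM2, 0.86 for PRIM1 and 0.72 for POLA1, the catalytic subunit of polymerase alpha, with SE from 0.11 to 0.17. The differences among the 4 were not tested. POLA1 had 16.5, 20.6 and 19.2 CPM in the controls and 28.4, 33.3 and 30.8 CPM after silencing, and the groups did not overlap.

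The replicative polymerases were divided, with 4 of 8 genes higher, 1 lower and 3 that did not pass the test. In polymerase epsilon, which copies the leading strand, POLE2 had 4.73, 5.42 and 6.33 CPM in the controls and 15.4, 15.6 and 14.8 CPM after silencing (log2 fold change 1.47, SE 0.14, adjusted p = 3.9e-04). The catalytic subunit POLE rose less, by 0.41 on the log2 scale (SE 0.08, adjusted p = 0.00878). The small histone-fold subunits did not pass the test. POLE3 had 76.5, 73.5 and 72.0 CPM in the controls and 61.1, 71.8 and 69.8 CPM after silencing, and POLE4 had 32.8, 29.2 and 32.7 CPM in the controls and 27.9, 25.9 and 26.4 CPM after silencing. Every silenced sample was below every control for both genes, by little (log2 fold changes -0.13 and -0.24, SE 0.08 and 0.09, adjusted p = 0.248 and 0.0677). POLE4 was called lower by limma on FPKM values, with an adjusted p of 0.029 whether 1 or 0.1 was added before taking log2, against a range from 0.0507 to 0.17 over the edgeR fits that left out a sample. POLE3 also forms, with CHRAC1, a part of a chromatin remodelling complex.

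In polymerase delta, which copies the lagging strand, the catalytic subunit POLD1 and the accessory subunit POLD3 rose, with log2 fold changes of 0.74 (SE 0.10, adjusted p = 0.00135) and 0.62 (SE 0.08, adjusted p = 0.00125). POLD2 was not called (log2 fold change 0.11, SE 0.08, adjusted p = 0.337). POLD4, the smallest subunit, which is degraded as a protein after DNA damage and in S phase, had 23.0, 25.6 and 40.1 CPM in the controls and 17.0, 14.9 and 18.6 CPM after silencing. It was the one member called lower (log2 fold change -0.81, SE 0.22, adjusted p = 0.024), with every silenced sample below every control and si-NC replicate 3 far above the other controls. Without si-NC replicate 3 its log2 fold change was -0.53 (adjusted p = 0.0315), and the call was lost without si-METTL16 replicate 1 or 2 (adjusted p = 0.0633 and 0.0776, edgeR).

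**Figure D3:**
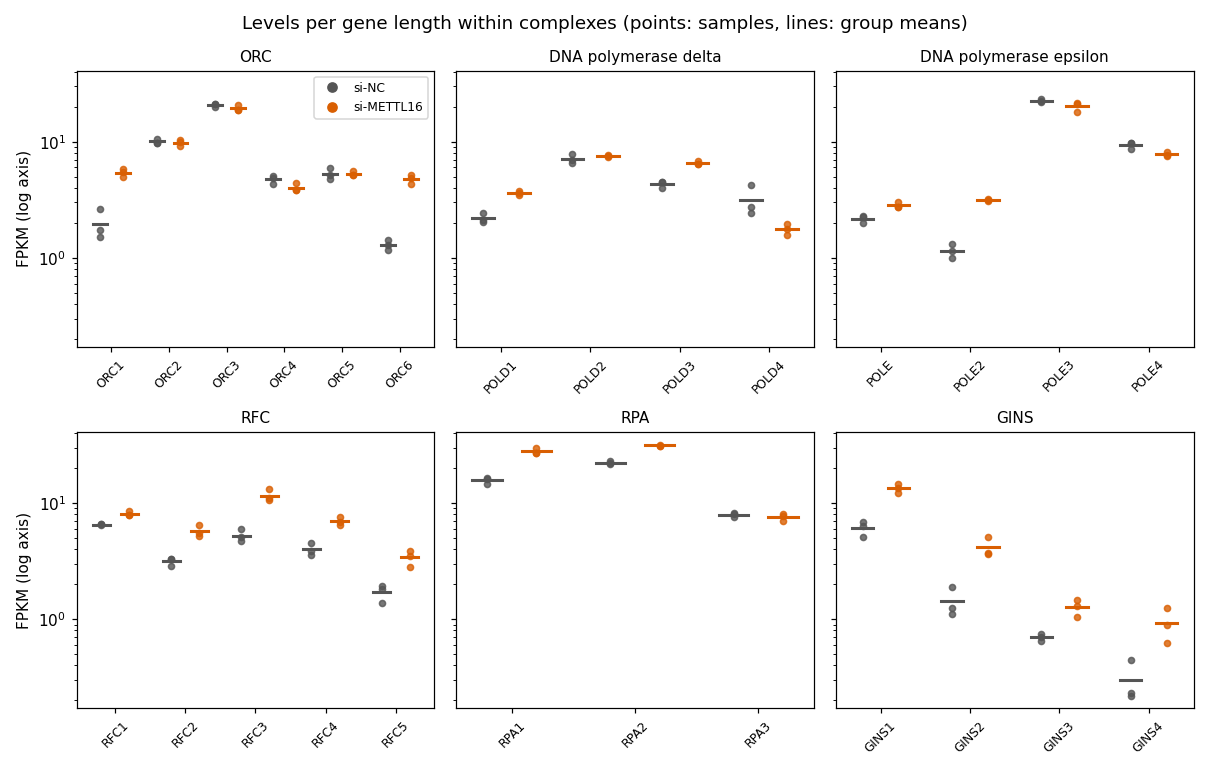
FPKM (log axis) of the subunits of 6 complexes in each si-NC (grey) and si-METTL16 (orange) sample, with lines at the group means. ORC1 rises from 1.97 to 5.42 FPKM and POLE2 from 1.15 to 3.16 FPKM beside smaller shifts of ORC2 to ORC5, POLE, POLE3 and POLE4, while ORC6, all 4 GINS and all 5 RFC subunits shift upward.

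PCNA, the sliding clamp, had the highest deposited FPKM of the members, 64.8 ± 4.59 for the controls and 113 ± 18.7 after silencing. The lengths behind FPKM are not given, so this was not read as a rank of abundance. By mean CPM of the controls, PCNA (116) was below TOPBP1 (159) and RPA1 (139). It had 110, 113 and 126 CPM in the controls and 174, 241 and 201 CPM after silencing, and the silenced samples, though spread, all lay above the controls (log2 fold change 0.82, SE 0.12, adjusted p = 0.00224). All 5 subunits of its loader RFC rose with it. The small subunits RFC2 to RFC5 showed log2 fold changes from 0.84 (RFC4) to 1.17 (RFC3), and the large subunit RFC1, which also carries the DNA-binding region of the loader, had 64.9, 65.0 and 63.8 CPM in the controls and 79.7, 86.5 and 78.6 CPM after silencing. RFC1 therefore rose by the least of all called members, 1.26-fold (log2 fold change 0.34, SE 0.07, adjusted p = 0.0074). RFC2 to RFC5 are shared with other clamp loaders that lack RFC1.

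RPA coats single-stranded DNA as a trimer. RPA1, the main DNA-binding subunit, had 129, 146 and 141 CPM in the controls and 245, 267 and 242 CPM after silencing (log2 fold change 0.86, SE 0.07, adjusted p = 2.6e-04). RPA2 rose by 0.52 on the log2 scale (SE 0.06, adjusted p = 8.2e-04). RPA3, the smallest subunit, had 45.7, 41.7 and 44.2 CPM in the controls and 39.6, 43.6 and 44.7 CPM after silencing, and the groups overlapped (log2 fold change -0.04, SE 0.08, adjusted p = 0.725).

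Of the 4 genes that process Okazaki fragments, 3 rose. FEN1, the flap nuclease, had 38.9, 38.9 and 40.7 CPM in the controls and 75.3, 82.3 and 84.2 CPM after silencing (log2 fold change 1.03, SE 0.07, adjusted p = 1.6e-04). DNA2, which cuts long flaps, and RNASEH2A, the catalytic subunit of the RNase that removes ribonucleotides, rose with log2 fold changes of 1.32 (SE 0.12) and 1.20 (SE 0.20). LIG1, the ligase that seals the fragments, had 17.3, 20.3 and 22.8 CPM in the controls and 21.6, 25.8 and 26.3 CPM after silencing. Its groups overlapped, and it did not pass the test (log2 fold change 0.29, SE 0.13, adjusted p = 0.132).

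At the fork itself, CLSPN (claspin), TIMELESS and WDHD1 rose and TIPIN did not pass the test. TIMELESS had 42.9, 51.5 and 52.1 CPM in the controls and 72.9, 84.9 and 107 CPM after silencing (log2 fold change 0.85, SE 0.15, adjusted p = 0.00467). TIPIN, its binding partner, had 12.8, 15.9 and 12.7 CPM in the controls and 15.7, 17.9 and 22.4 CPM after silencing, with si-NC replicate 2 above si-METTL16 replicate 1 (log2 fold change 0.43, SE 0.16, adjusted p = 0.0756). WDHD1, which links the helicase to polymerase alpha, doubled its level, from 19.8 ± 3.27 CPM to 39.7 ± 2.75 CPM (SD, n = 3), and CLSPN, an adaptor of the checkpoint kinase CHK1, rose with a log2 fold change of 0.85.

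The genes that act behind the fork rose as well. DTL (chromosome 1 from 212035553 to 212107400), the receptor of a ubiquitin ligase that destroys CDT1 on PCNA-bound DNA, had 16.9, 18.0 and 18.0 CPM in the controls and 62.5, 58.8 and 56.2 CPM after silencing. The groups were far apart, and DTL had the lowest adjusted p of the members (log2 fold change 1.74, SE 0.08, adjusted p = 8.3e-05). CHAF1A and CHAF1B, the large and middle subunits of the histone chaperone CAF-1, rose with log2 fold changes of 0.91 (SE 0.10, adjusted p = 7.4e-04) and 1.27 (SE 0.18, adjusted p = 0.00182). UHRF1, which reads hemimethylated DNA for the maintenance methyltransferase, had 17.2, 23.8 and 21.2 CPM in the controls and 30.2, 31.9 and 49.2 CPM after silencing. One silenced sample, replicate 3, was well above the other two (log2 fold change 0.84, SE 0.21, adjusted p = 0.0195). The call of UHRF1 was lost without si-NC replicate 1 or 3 (adjusted p = 0.0638 and 0.0563, edgeR).

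Unequal changes of partners were examined as log2 ratios of CPM within each sample (a mean of log2 CPM where there are several partners), which do not depend on the scaling between samples, for 8 pairs or complexes. Gene length is not removed from such a ratio, so only its change between groups was read. In all 8 the si-NC and si-METTL16 ratios did not overlap. The 8 were chosen with earlier results known, and ORC6 and POLE, which also rose, are in none of them. This separation is therefore a description. Among single tested genes, 50.9% had groups that did not overlap. The exact two-sided permutation test gave p = 0.1 for each ratio, the smallest p that 3 samples against 3 allow. This p stayed at 0.1 after Benjamini-Hochberg adjustment over the 8. The ratio of POLE2 to POLE3 and POLE4 was -3.37, -3.07 and -2.91 in si-NC and -1.41, -1.46 and -1.53 in si-METTL16 samples, a difference of 1.65 and the largest of the 8. The ratio of ORC1 to the mean of ORC2, ORC3, ORC4 and ORC5 rose by 1.57, from -3.03 ± 0.43 (SD, n = 3) to -1.46 ± 0.06. The ratio of POLD4 to the other delta subunits moved the other way, from -0.24 ± 0.38 to -1.50 ± 0.19, and that of RFC1 to the small subunits from 1.94 ± 0.12 to 1.31 ± 0.05. Smaller differences were found for TIMELESS to TIPIN (0.42), DBF4 to CDC7 (0.32) and CHAF1A to CHAF1B (-0.38, or -0.18 without si-NC replicate 1).

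**Figure D4:**
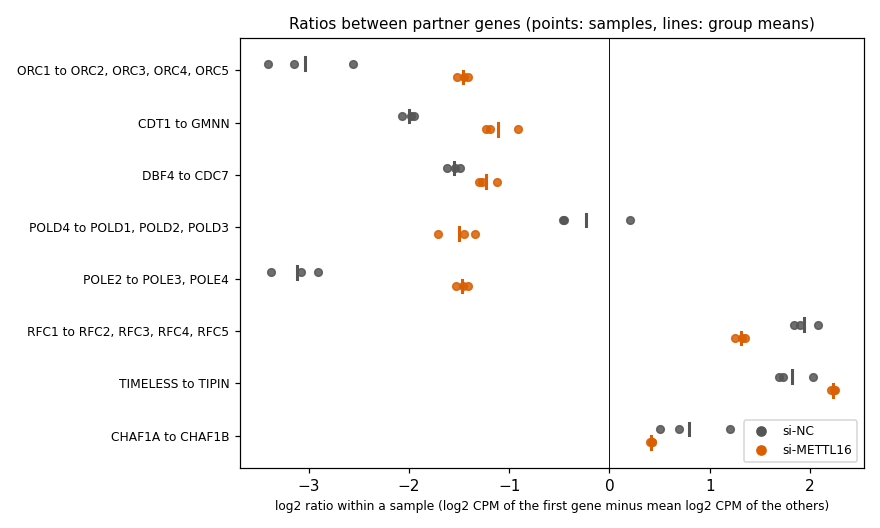
Log2 ratio within a sample (x axis) of each first gene to its partners (y axis), with points for the 3 si-NC (grey) and 3 si-METTL16 (orange) samples and lines at the group means. The groups are separate in all 8 rows, from a difference of 1.65 for POLE2 to POLE3 and POLE4 down to 0.32 for DBF4 to CDC7.

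The 10 members that did not pass the test had a higher median FPKM in control cells than those that rose. Their si-NC FPKM ranged from 1.87 to 22.4 with a median of 7.50, against a range from 0.301 to 64.8 and a median of 2.30 for the 40 that rose. In si-METTL16 samples the medians were 7.54 and 5.48 FPKM. The sets were separated by the test itself, and the lengths behind FPKM are not given in the sources used here, so this is a description. The part of these lengths in the contrast between the sets was not tested, and the values were not read as levels per gene length.

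The neighbours that share a promoter region were followed next. For 14 of the 45 members with a RefSeq promoter, a tested protein-coding gene started on the opposite strand within 1000 bases of the member's start. Of these 14 neighbours, 5 were called higher, 2 lower and 7 did not pass the test, with a median log2 fold change of 0.08. Of all tested genes, 18.4% were called higher and 17.5% lower. For the 10 such members that rose, 4 neighbours were higher, 2 lower and 4 not called. The 3 such members with the highest log2 fold changes were ORC6, DTL and ORC1. VPS35, a trafficking gene whose start lies 481 bases from that of ORC6, changed by -0.17 on the log2 scale (SE 0.05, adjusted p = 0.0323), and INTS7, a subunit of the Integrator complex 191 bases from DTL, had 0.07 (SE 0.07, adjusted p = 0.481). PRPF38A, a splicing factor gene 179 bases from ORC1, rose by 0.71 on the log2 scale (SE 0.11, adjusted p = 0.00272). Of these 3 neighbours, 1 was thus lower, 1 higher and 1 not called.

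Of 33 further genes of the same process, a list chosen with earlier results known, 21 were higher, 3 were lower and 9 did not pass the test. Their median log2 fold change was 0.57. Of all tested genes, 18.4% were called higher and 17.5% lower, and the median was -0.0045. The highest were MCM10, a scaffold of helicase activation, with 9.16 ± 1.43 CPM in the controls and 31.0 ± 2.07 CPM after silencing (SD, n = 3, log2 fold change 1.76), ATAD5, which unloads PCNA (1.50), and TICRR, a firing factor that binds TOPBP1 (1.36). The lowest of those called were SUPT16H, a subunit of the histone chaperone FACT (-0.52), CUL4B, a scaffold of the ligase that uses DTL (-0.49), and ASF1A, a histone chaperone (-0.44). The call of ASF1A was kept in 2 of the 6 edgeR fits that left out a sample.

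Some members share sequence with other genes. Exons of 12 members overlap exons of a protein-coding gene on the opposite strand in GENCODE v44, by at most 431 bases (ORC4 with ACVR2A), and the use of strand in counting is not given in the sources used here. On the same strand, exons of 7 members overlap those of another protein-coding gene, up to 53.3% of the exonic bases for RNASEH2A with THSD8, which was at 0 CPM in si-NC samples. PRIM1 shares 139 bases with NACA, which had 271 CPM, and how such reads were assigned is not given in the sources used here. RFC5 overlaps WSB2, which had 156 CPM in si-NC samples and a log2 fold change of -0.51, by 186 bases. DBF4P1, a pseudogene of DBF4, held 348 counts over the 6 samples against 1736 for DBF4.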

How the data were processed

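The authors deposited raw counts per gene and FPKM values, that is counts scaled by a length and the library total, for 6 PANC-1 samples. The submitters' processing notes name HISAT2 2.0.4, StringTie 1.3.0 and the build GRCh38. The counting program, annotation release, strand setting and the lengths behind FPKM are not given in the sources used here. Gene positions were copied from that table, and 21 members match both ends of the gene in GENCODE v44.

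Groups and replicate numbers came from the sample titles. Counts were scaled by TMM, filtered with filterByExpr (minimum count 10, minimum total 15) and tested over all genes in R 4.3.3 by the quasi-likelihood F test of edgeR 4.0.16 (glmQLFit, glmQLFTest). A gene was called at a Benjamini-Hochberg adjusted p under 0.05. A count test was used because raw counts were deposited, with limma 3.58.1, which the methods name, and DESeq2 1.42.0 as alternatives. Each standard error was derived as the log2 fold change over the square root of F. Log2 CPM used a prior count of 2, and 3 counts correspond to between 0.167 and 0.192 CPM. Exact permutation tests used scipy 1.17.1. The authors' FPKM values were printed as deposited and not read as levels per gene length. For POLD4, 23.0 CPM and 2.45 FPKM in si-NC replicate 1 imply a length above the span of the gene (67350777 to 67356972).

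The members, lists and ratios were chosen with earlier results of these data known, so no list was tested as a set. Every member was named, with the 3 highest and 3 lowest called genes of the further list. In counts simulated for this comparison (14844 genes run), 76 of 100 genes changed by 1 on the log2 scale and 86 of 100 changed by 2 passed, each in the simulated direction, along with 15 genes that had not been changed. Far fewer genes were changed there than were called in the data (5418 of 15089). The adjusted p depends on that share, so these rates do not carry over directly. Protein sequences were not used here. The replicate libraries of a group were not duplicates (chi-square per degree of freedom of at least 15.9, where sampling noise gives about 1).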

Additional observations from a re-analysis of the deposited data

How the results depend on the processing

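Of the 41 called members, 38 were called in all 6 fits that left out a sample, the exceptions being GMNN, POLD4 and UHRF1, and 37 in every alternative in which they were tested, GINS4 being lost at an adjusted p under 0.01. GINS3 and GINS4 were not tested in the FPKM fits. The number called lower was 2 with limma on FPKM values (1 or 0.1 added before taking log2), where 49 members were tested, 0 at an adjusted p under 0.01, and 0 to 1 when each sample was left out. The median log2 fold change of the members was 0.68 with limma when 1 was added to FPKM, which shrinks changes of low genes, and 0.77 to 0.92 when each sample was left out. At an adjusted p under 0.01, 3035 genes were called over all. The sign turned only for uncalled members near 0: ORC2 (-0.06 to 0.02 over these fits, 0.02 without si-NC replicate 2 or si-METTL16 replicate 1), ORC5 (-0.04 to 0.12, with -0.04 without si-NC replicate 3, -0.02 without si-METTL16 replicate 2) and RPA3 (-0.08 to 0.01, with 0.01 without si-METTL16 replicate 1). The cause was not tested. Whether same-numbered replicates were paired is not given in the sources used here. Deviations of same-numbered samples correlated at 0.0253 to 0.0371 across genes, and those of differently numbered samples at -0.0388 to 0.00827. These small values cannot settle whether there was a pairing. With the replicate block, 5013 genes, 41 members (40 higher, 1 lower) and 22 further genes were called, with a member median of 0.86. A fit without scaling beyond library totals, added after seeing the data, gave 41 members and a median of 0.84. The 3 samples per group limit the precision of single members.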

Other observations

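Among the further replication genes, 3 sets of related genes were chosen after their values were seen. The histone chaperones ASF1A and ASF1B, which are paralogs, went opposite ways, with log2 fold changes of -0.44 (adjusted p = 0.0307) and 1.28 (adjusted p = 5.6e-04, edgeR's quasi-likelihood test). The ASF1B level was 10.9 ± 1.62 CPM in the controls and 26.4 ± 2.05 CPM after silencing (SD, n = 3). The subunits of the FACT chaperone also differed, with -0.52 for SUPT16H (adjusted p = 0.00725) and 0.03 for SSRP1 (adjusted p = 0.719). In the ubiquitin ligase that uses DTL, DDB1 rose (log2 fold change 0.32, adjusted p = 0.00326), CUL4B fell (-0.49, adjusted p = 6.4e-04) and CUL4A was not called (-0.08, adjusted p = 0.32). The differences within these sets were not tested.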
